A study of Mus musculus with 8 samples.

Results

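The 38 genes described here bring fatty acids into the cell and break them down by beta-oxidation. They were taken from the table of 13677 genes by name, and all 38 were listed there. The set was chosen with earlier results of these data known. Their transcripts were measured by RNA sequencing of mouse ventricular heart tissue in 8 libraries, 3 labelled C, 2 labelled KO and 3 labelled DKO. The series sets ventricles that lack Vhl against wild-type ventricles in the Wt1-Cre mouse model. The protein made from Vhl targets hypoxia-inducible factors for breakdown when oxygen is present. Wt1 is a gene of the epicardium, so the cells in which Cre acts are a part of the tissue that was sequenced. The labels do not spell out C, KO or DKO, do not name a second gene changed in DKO, and give neither age nor strain; no group was treated. Every direction below is therefore one between libraries carrying these labels. The KO libraries are numbered 1 and 3, and a KO sample numbered 2 was not analysed here. Whether each library stands for its own animal is not stated, so the p-values speak for the spread among these libraries, and that spread may be technical.

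Long-chain fatty acids reach the heart bound to albumin or are cut from circulating triglyceride. Inside the cell they are joined to coenzyme A, carried into mitochondria as carnitine esters and shortened step by step, and each turn of the cycle passes electrons to the respiratory chain. The adult heart draws much of its ATP from this route, and the genes for its enzymes are well-known targets of the nuclear receptors PPARalpha and ERRalpha.

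In KO libraries many of these transcripts were lower than in C, and the decreases were uneven. Ucp3 fell furthest, and Ech1, Acaa2, Ehhadh and Etfb came next, these 5 to about 0.24 to 0.35 of their levels in C on the log2(signal + 1) scale. That scale understates the change of the low transcript Ehhadh, which was -1.60 in log2 there and -1.82 by edgeR on the recovered reads. Transcripts that activate fatty acids (Acsl1, Acsl3, Acsl4 and Acsl5), and those of the medium-chain dehydrogenase Acadm and the trifunctional protein subunit Hadhb, did not pass the test. In KO versus C, 13 of the 38 genes were lower and 0 were higher at a limma adjusted p below 0.05. Over all 13544 genes tested, 7.01% were lower and 6.9% were higher by the same rule. The groups did not overlap, with both KO libraries below all C libraries, for 29 of the 38 genes, against 26.7% of all genes. The median log2 fold change of the 38 genes was -0.53, and that of all tested genes was 0.01. In DKO versus C, limma called 0 of the 38 genes, where 0.0812% of all genes were lower and 0.0738% were higher. In DKO versus KO it called 6 higher, against 6.08% of all genes, and 0 lower, against 5.73%.

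**Figure D1:**
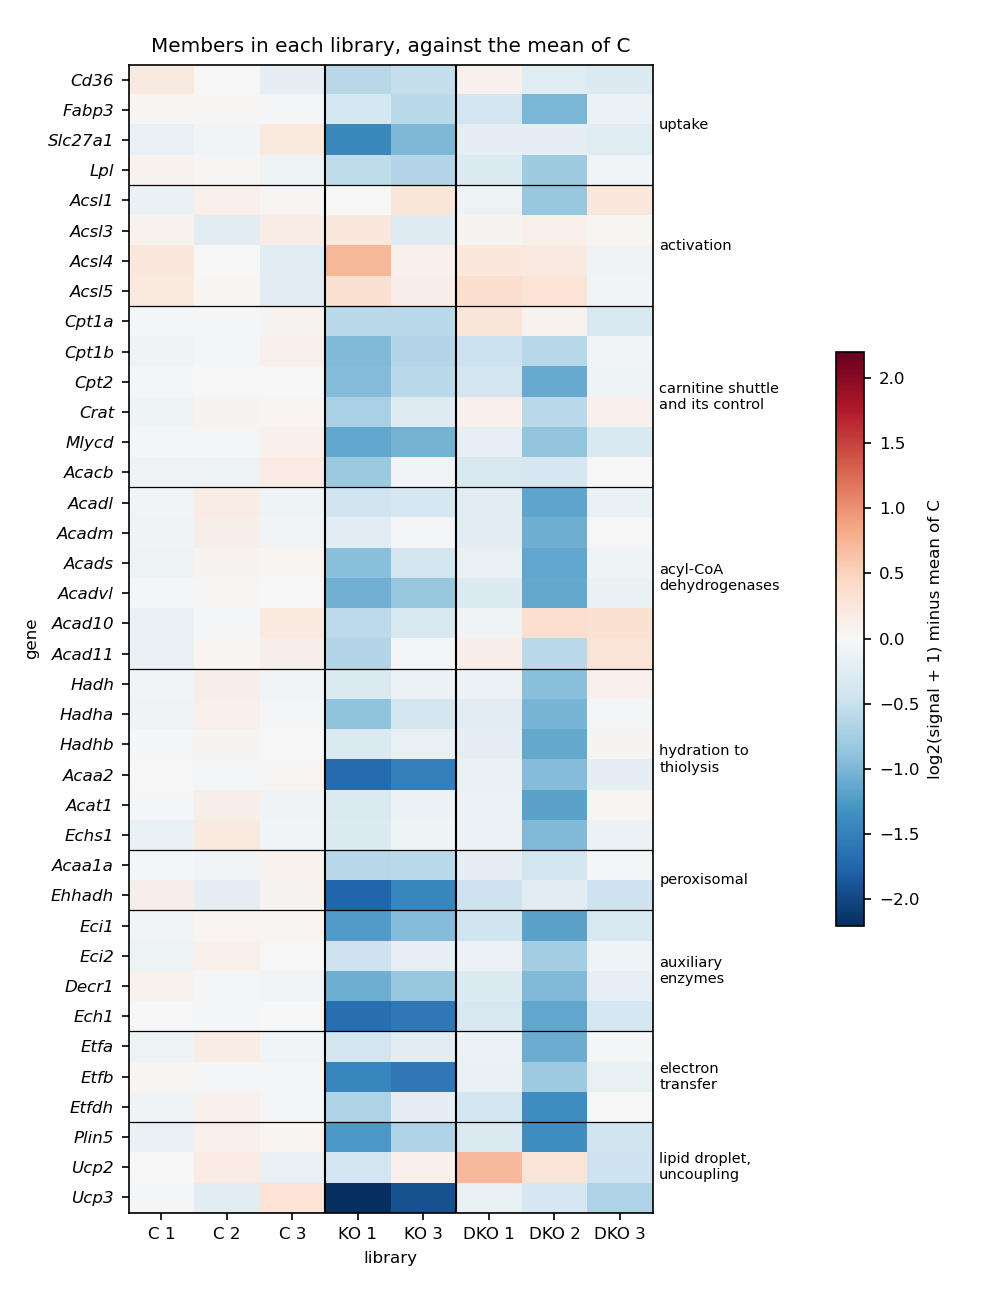
Log2(signal + 1) of each of the 38 genes in each of the 8 libraries minus the mean of the C libraries, with genes in rows by role and libraries in columns by group. The KO columns are below the C mean for 34 of the 38 genes in each library, and DKO 2 has the lowest median of any library, -0.85.

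The libraries held 15028176 to 21202385 reads, and no gene described here had fewer than 34 reads in a library. Levels are the deposited normalised signal, which is on the scale of CPM. DKO 2 stood apart, with 41.6% of its reads from the mitochondrial genome against 16.2% to 29.9% in the other libraries. The 38 genes together took 1.89% to 2.05% of reads in C, 1.75% and 1.83% in KO, and 1.85%, 0.797% and 1.66% in DKO 1, 2 and 3. Vhl itself read 7.26 to 8.97 in C, 8.33 and 8.96 in KO and 8.61 to 11.2 in DKO, and did not pass the test (KO versus C, limma, adjusted p = 0.708), which in whole ventricle does not check a deletion limited to some cells.

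The size of the decrease depends on how libraries are scaled. The deposited scaling factors were 1.37 and 1.36 in KO and 0.925 to 0.964 in C, so the KO values are divided by a larger effective library size. When reads were scaled to the plain total, the median of all genes in KO versus C moved to 0.48 on the log2 scale and that of the 38 genes to -0.01, with 19 of the 38 below zero and 19 above. Relative to other genes the 38 were lower by a similar margin under both scalings. With the plain total 5 genes remained lower (Ucp3, Ehhadh, Ech1, Acaa2 and Etfb) and 2 were higher, Acsl4 by 0.91 (adjusted p = 0.0136) and Acsl5 by 0.76 (adjusted p = 0.0289). With this scaling 1.44% of all tested genes were lower and 34% were higher, so 2 of 38 higher is below the share over all genes, and 4.06% of all called genes were lower against 50.4% with the deposited scaling. Scaled to the total of nuclear reads, 8 were lower and the same 2 were higher, where 2.74% of all tested genes were lower and 27.3% were higher (9.12% of the called genes lower). Every decrease given below is relative to the scaling of the deposited values.

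The tissue label was checked against 15 markers of ventricular cardiomyocytes, which were abundant in every library. Their summed signal was 86189 to 90290 in C, 52079 and 58855 in KO, and 72545, 51530 and 86724 in DKO 1, 2 and 3. Of these 15 markers 3 fell in KO versus C (Tnni3, Tcap and Ckm), against 7.01% of all genes, and 0 rose, against 6.9%. Both KO libraries lay below all C libraries for 11 of the 15, against 26.7% of all genes. They lay above all C libraries for 2, Actc1 and Hspb7, so the markers did not move alike. The largest parts of the marker sum in C were Myh6 and Mb, with means of 23289 and 12798 there and 12651 and 7121 in KO. The summed signal of the 38 genes was likewise lowest in KO and DKO 2, with 20366 to 21288 in C, 12766 and 13452 in KO, and 17462, 11303 and 19178 in DKO. DKO 3 lay within the range of C for the markers and below all C libraries for the 38 genes. Expressed as a percentage of the cardiomyocyte sum, the 38 genes came to 23.4% to 24.3% in C, 24.5% and 22.9% in KO, and 21.9% to 24.1% in DKO, so these ranges overlap. Lpl and Fabp3 made up 34.9% to 43.8% of the sum of the 38 genes, and without them the percentage came to 14.8% to 14.9% in C, 13.8% and 14.2% in KO and 13.7% to 15.7% in DKO. In this smaller sum both KO libraries lay below all C libraries, and DKO overlapped both groups. In bulk tissue fewer cells of a type and less RNA per cell cannot be told apart, and the part of the cardiomyocyte markers in the results below was not tested.

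**Figure D2:**
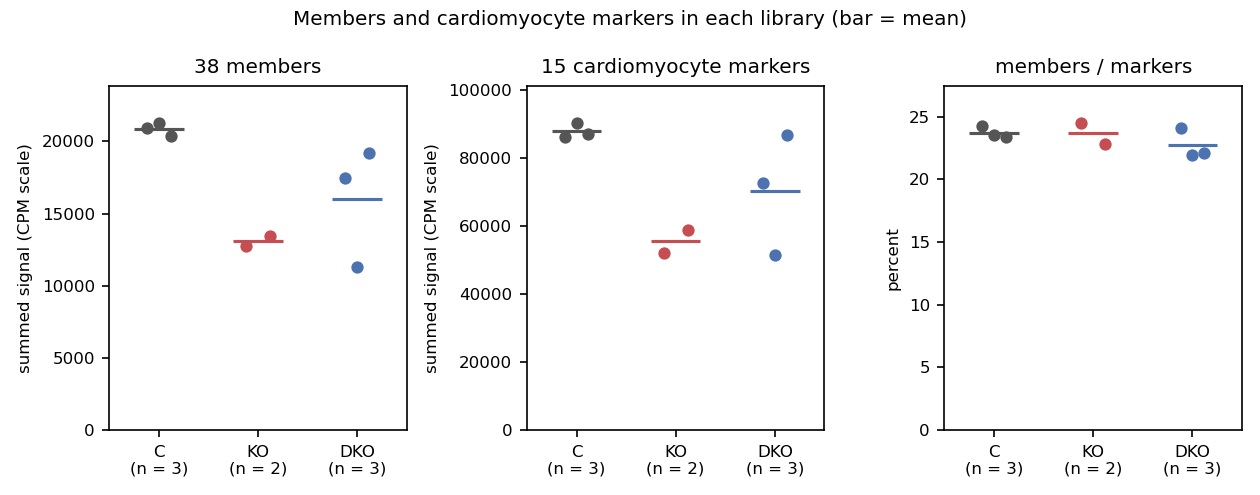
Summed signal of the 38 genes (left), summed signal of 15 cardiomyocyte markers (middle) and the first as a percentage of the second (right), with points for libraries by group and bars for group means. KO 1, KO 3 and DKO 2 are the lowest libraries in both sums. The percentages run from 21.9% to 24.5% over all libraries, and the ranges of the 3 groups overlap. KO 3, DKO 2 and DKO 3 are below all C libraries. Without Lpl and Fabp3, which is not shown, the percentages of both KO libraries lie below those of all C libraries.

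Promoter sequences are shown for 4 genes, chosen after their values were seen: Ucp3 and Ehhadh, which had the lowest adjusted p of the 38, and Etfb and Etfa, the 2 subunits of one protein, of which Etfb passed the test and Etfa did not. The sequences are the bases just before the RefSeq start site in GRCm38.p6, written 5′ to 3′ on the gene's own strand, from chr7:100472741-100472990 (plus strand), chr16:21787835-21788084 (minus), chr7:43443822-43444071 (plus) and chr9:55512244-55512493 (minus). Capitals mark every match, on either strand, to the motifs searched: the nuclear receptor half-site AGGTCA, a direct repeat of this half-site with 1 base between the copies (DR1, the form PPARs bind), the ERR site TCAAGGTCA, which contains a half-site, and the core of hypoxia response elements, ACGTG or GCGTG.
Ucp3: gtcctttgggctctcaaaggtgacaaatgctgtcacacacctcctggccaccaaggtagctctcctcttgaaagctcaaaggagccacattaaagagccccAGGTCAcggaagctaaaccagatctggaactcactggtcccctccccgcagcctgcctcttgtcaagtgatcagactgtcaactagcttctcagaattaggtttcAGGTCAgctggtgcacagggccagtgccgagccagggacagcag
Ehhadh: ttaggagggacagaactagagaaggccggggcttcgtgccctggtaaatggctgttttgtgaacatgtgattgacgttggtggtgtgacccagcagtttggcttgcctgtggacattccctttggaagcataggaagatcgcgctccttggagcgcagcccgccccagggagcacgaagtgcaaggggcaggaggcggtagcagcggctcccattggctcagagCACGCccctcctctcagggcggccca
Etfb: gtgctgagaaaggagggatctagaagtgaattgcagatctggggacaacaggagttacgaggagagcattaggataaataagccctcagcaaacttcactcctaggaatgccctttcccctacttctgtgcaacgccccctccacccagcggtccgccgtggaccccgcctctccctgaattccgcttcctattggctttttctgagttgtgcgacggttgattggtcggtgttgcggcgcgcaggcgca
Etfa: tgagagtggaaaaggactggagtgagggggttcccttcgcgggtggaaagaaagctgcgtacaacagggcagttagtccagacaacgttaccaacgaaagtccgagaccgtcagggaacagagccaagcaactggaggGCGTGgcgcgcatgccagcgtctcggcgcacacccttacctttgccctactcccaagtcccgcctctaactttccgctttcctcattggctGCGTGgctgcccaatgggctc
The Ucp3 sequence holds 2 half-sites, Ehhadh holds 1 GCGTG on the opposite strand, Etfa holds 2 GCGTG and Etfb holds none of these letters. RefSeq promoter windows were found for 32 of the 38 genes, in 36 windows. A half-site was present in 9 of the 36 windows (16.3% of all 32851 windows of the same length), the DR1 repeat in 0 (0.0396% of all), the ERR site in 0 (0.423% of all), and ACGTG or GCGTG in 22 (43.8% of all). A match is a description of letters and no evidence of binding.

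Uptake was represented by the fatty acid translocase Cd36, the binding protein Fabp3, the transport protein Slc27a1 (FATP1) and lipoprotein lipase Lpl, which releases fatty acids from circulating triglyceride. Of these 4 genes, Slc27a1 alone fell in KO versus C. Its signal was 166, 178 and 215 in C, 68.5 and 92.8 in KO, and 162, 162 and 154 in DKO. Both KO libraries lay below all others, and the DKO libraries were below the C libraries. The log2 fold change in KO versus C was -1.21 (SE 0.183, adjusted p = 0.00201), and in DKO versus KO the level was higher by 0.99 (SE 0.183, adjusted p = 0.00634).

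Lpl was the most abundant of the 38 transcripts in total, and Fabp3 the most abundant per kilobase of the longest transcript (mean signal per kilobase in C 4378, against 1017 for Lpl). Lpl read 4416, 4249 and 3886 in C, 2850 and 2675 in KO, and 3403, 2425 and 3994 in DKO. The KO libraries were below all C libraries, yet the change of -0.60 on the log2 scale (SE 0.314) had an adjusted p of 0.23. Cd36 read 896, 778 and 678 in C, 510 and 539 in KO, and 827, 646 and 627 in DKO, a KO versus C change of -0.57 (SE 0.217, adjusted p = 0.103). Fabp3 read 3489 to 3673 in C, 2747 and 2394 in KO, and 1799 to 3289 in DKO (adjusted p = 0.335 in KO versus C). For both, the KO libraries were also below all C libraries.

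The acyl-CoA synthetases, which join a fatty acid to coenzyme A, showed no change past the threshold in any comparison under the deposited scaling. Acsl1, the main form in heart, read 258, 308 and 288 in C, 286 and 343 in KO, and 263, 159 and 332 in DKO. The groups overlapped, and the KO versus C difference was 0.14 on the log2 scale (95% interval -0.44 to 0.72, adjusted p = 0.773). Acsl3, Acsl4 and Acsl5 were far less abundant, with C means of 2.97, 6.20 and 16.7, and log2 differences in KO versus C of -0.03, 0.42 and 0.24.

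The carnitine shuttle moves acyl groups across the inner mitochondrial membrane. Cpt1a and Cpt1b make acylcarnitine at the outer membrane, Cpt2 turns it back into acyl-CoA on the inside, and Crat handles short acetyl groups. Cpt1b, the muscle form, read 536, 548 and 612 in C, 289 and 359 in KO, and 404, 363 and 544 in DKO. Its change in KO versus C was -0.81 (SE 0.217, adjusted p = 0.0285), with both KO libraries below all others. Cpt1a, the liver form, was at a C mean of 37.5 and stood at 36.5, 36.8 and 39.3 in C, 24.4 and 24.7 in KO, and 45.2, 39.7 and 29.1 in DKO. It was lower in both KO libraries, by -0.59 (SE 0.183), with an adjusted p of 0.0514. With a trend in gene length and GC content removed it passed (log2 -0.69, adjusted p = 0.0259), while that setting ended the KO versus C calls of Acadvl (adjusted p = 0.0503) and Plin5 (adjusted p = 0.0679).

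Cpt2 read 194, 199 and 199 in C, 102 and 131 in KO, and 148, 91.1 and 184 in DKO. Both KO libraries were below the C libraries, and the difference of -0.77 (SE 0.252) had an adjusted p of 0.0613. Crat read 405 to 448 in C, 263 and 355 in KO and 287 to 461 in DKO (adjusted p = 0.192 in KO versus C). Mlycd, which breaks down malonyl-CoA, the inhibitor of Cpt1, fell. Its signal was 144, 143 and 158 in C, 66.4 and 71.9 in KO, and 131, 80.9 and 118 in DKO, a KO versus C change of -1.09 (SE 0.199, adjusted p = 0.0049). Acacb, the carboxylase that makes malonyl-CoA, read 228 to 279 in C and 139 and 236 in KO, and those groups overlapped (adjusted p = 0.239). Of the 6 shuttle genes, 2 fell in KO versus C, against 7.01% of all genes.

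The first step of each turn of beta-oxidation is a dehydrogenation by enzymes that differ in the chain length they prefer. Acadvl acts on very long chains, Acadl on long, Acadm on medium and Acads on short chains. Acadvl read 1002, 1048 and 1026 in C, 491 and 573 in KO, and 832, 472 and 925 in DKO. It fell in KO versus C by 0.95 on the log2 scale (SE 0.276, adjusted p = 0.0399), and all 3 DKO libraries were also below all C libraries. Acadl read 600, 697 and 587 in C, 462 and 477 in KO, and 524, 280 and 566 in DKO, without passing the test (log2 -0.41, SE 0.277, adjusted p = 0.353). Acadm read 448, 513 and 452 in C, 401 and 454 in KO, and 395, 223 and 472 in DKO, with overlapping groups and a KO versus C difference of -0.14 (95% interval -0.74 to 0.46, adjusted p = 0.782). Acads, Acad10 and Acad11 had adjusted p of 0.14, 0.151 and 0.406.

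The ratio of Acadvl to Acadm within a library does not depend on how libraries are scaled. It was 2.24, 2.04 and 2.27 in C, 1.23 and 1.26 in KO, and 2.11, 2.12 and 1.96 in DKO. Both KO libraries were below all others. The exact two-sided permutation test gave p = 0.2 for KO versus C, which is the smallest this design of 3 against 2 libraries allows. This ratio was chosen after the values were seen.

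The next steps add water, oxidise again and split off acetyl-CoA. Hadha and Hadhb are the subunits of the trifunctional protein, which carries out all these steps on long chains. Hadha read 761, 864 and 776 in C, 434 and 602 in KO, and 674, 391 and 782 in DKO, with a KO versus C difference of -0.64 (SE 0.286, adjusted p = 0.157). Hadhb read 847, 907 and 866 in C, 703 and 775 in KO, and 751, 398 and 909 in DKO, with a difference of -0.24 (SE 0.302, adjusted p = 0.641). Both KO libraries were below all C libraries in both genes, without passing the test. The ratio of Hadha to Hadhb was 0.899, 0.953 and 0.896 in C, 0.617 and 0.776 in KO, and 0.897, 0.982 and 0.861 in DKO (exact two-sided permutation p = 0.2 in KO versus C, the smallest possible). These genes lie head to head on chromosome 5, with RefSeq start sites 273 bases apart, and their promoter windows share 228 bases.

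Acaa2, the mitochondrial thiolase that releases acetyl-CoA, was the member of this step that fell. It read 1066, 1050 and 1087 in C, 328 and 377 in KO, and 962, 549 and 929 in DKO, and both KO libraries lay below all others. The change in KO versus C was -1.60 (SE 0.256, adjusted p = 0.0026), and in DKO versus KO it was higher by 1.16 (SE 0.256, adjusted p = 0.0141). The other genes of this group, Hadh, Acat1 and Echs1, differed by -0.22, -0.22 and -0.20 on the log2 scale in KO versus C and had adjusted p of 0.607, 0.675 and 0.644.

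Fatty acids with double bonds need auxiliary enzymes, and 3 of these 4 genes fell in KO versus C, against 7.01% of all genes. Ech1, an isomerase of dienoyl-CoA, read 1627, 1576 and 1629 in C, 511 and 542 in KO, and 1263, 726 and 1229 in DKO. It changed by -1.61 (SE 0.265, adjusted p = 0.00294) in KO versus C and was higher by 0.98 (SE 0.265, adjusted p = 0.0333) in DKO versus KO, and the 3 groups did not overlap. Eci1, an isomerase of enoyl-CoA, read 261, 278 and 275 in C, 113 and 139 in KO, and 199, 120 and 212 in DKO, a change of -1.11 (SE 0.234, adjusted p = 0.00972). Decr1, a reductase of dienoyl-CoA, read 312, 290 and 283 in C, 140 and 164 in KO, and 239, 150 and 259 in DKO, a change of -0.96 (SE 0.227, adjusted p = 0.0167). Eci2, which also lies in peroxisomes, read 98.1 to 114 in C and 77.1 and 92.7 in KO and did not pass (adjusted p = 0.348).

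Both genes grouped here as peroxisomal enzymes fell in KO versus C, against 7.01% of all genes. Of 14 further genes of peroxisomal oxidation 1 was lower, and their median log2 fold change was 0.005. Ehhadh, the bifunctional enzyme of peroxisomal beta-oxidation whose promoter is shown above, was one of the less abundant transcripts. It read 14.8, 11.7 and 14.2 in C, 3.33 and 4.35 in KO, and 9.58, 11.4 and 9.65 in DKO, and all 3 groups were apart from each other. The change in KO versus C was -1.60 (SE 0.182, adjusted p = 0.000456), and DKO versus KO was higher by 1.22 (SE 0.182, adjusted p = 0.00226). Acaa1a, the peroxisomal thiolase, had a C range of 127 to 139, KO values of 85.9 and 87.7 and a DKO range of 99.2 to 130 (adjusted p = 0.0303).

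**Figure D3:**
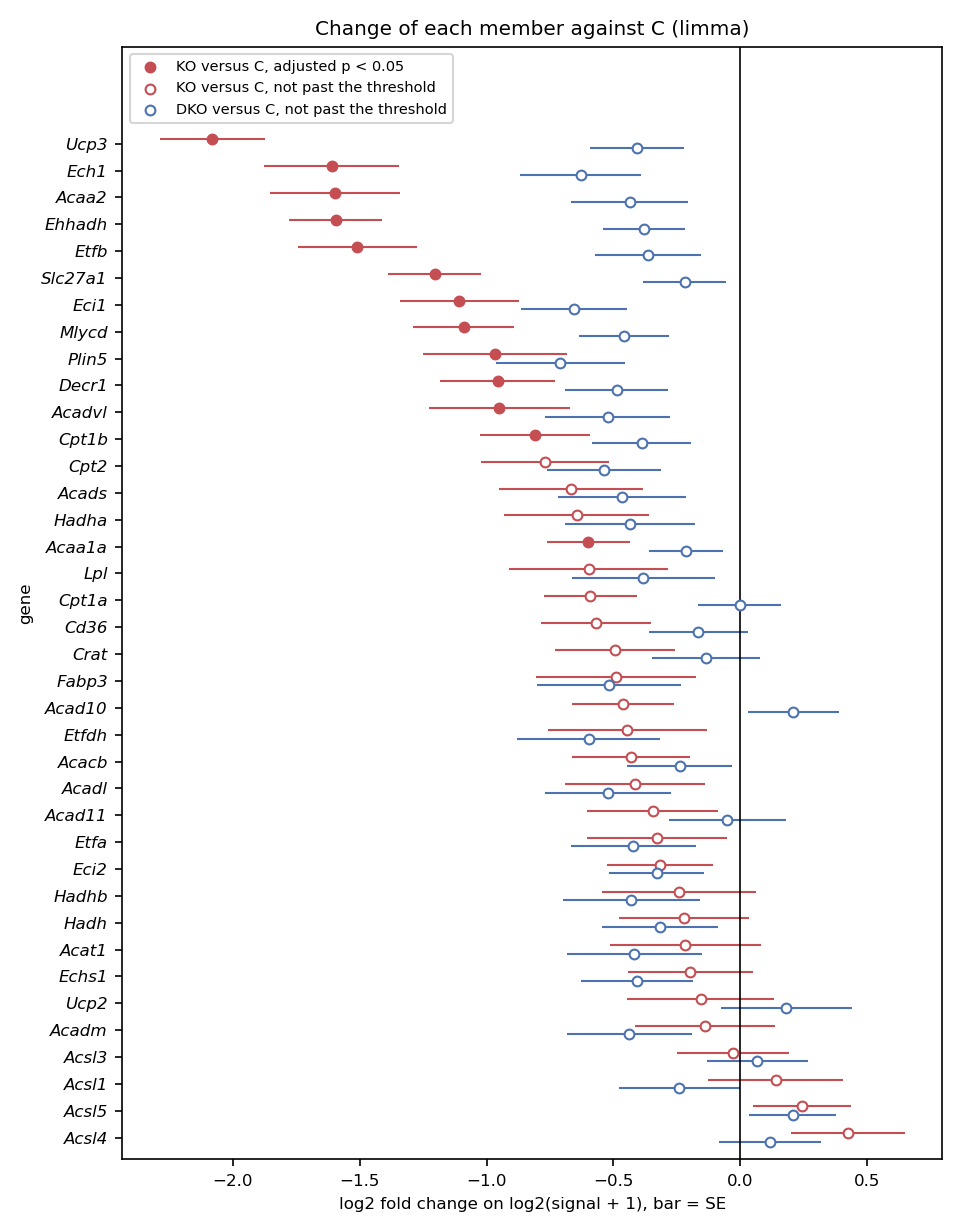
Log2 fold change of each of the 38 genes in KO versus C and DKO versus C, with bars for 1 SE of the limma fit and filled points where the adjusted p is below 0.05. The KO values run from -2.08 (Ucp3) to 0.42 (Acsl4), and no DKO value is filled.

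Electrons from the dehydrogenases pass to the electron transfer flavoprotein, made of Etfa and Etfb, and then to ubiquinone through Etfdh. Etfb read 998, 945 and 953 in C, 354 and 324 in KO, and 876, 557 and 864 in DKO, a change of -1.51 (SE 0.234, adjusted p = 0.00229) in KO versus C. DKO versus KO was higher by 1.15 (SE 0.234, adjusted p = 0.0101), with the DKO libraries between C and KO. Etfa read 262, 318 and 270 in C, 212 and 238 in KO, and 258, 132 and 276 in DKO, a change of -0.33 (SE 0.277, adjusted p = 0.468). Etfdh read 214, 246 and 221 in C, 141 and 196 in KO, and 170, 87.5 and 225 in DKO, a change of -0.44 (SE 0.315, adjusted p = 0.379). The ratio of Etfb to Etfa was 3.81, 2.97 and 3.53 in C, 1.67 and 1.36 in KO, and 3.40, 4.24 and 3.13 in DKO. Both KO libraries were below all others (exact two-sided permutation p = 0.2, the smallest possible). Etfb is a short transcript, and with a trend in gene length and GC content removed its change was -1.15 (adjusted p = 0.00842).

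**Figure D4:**
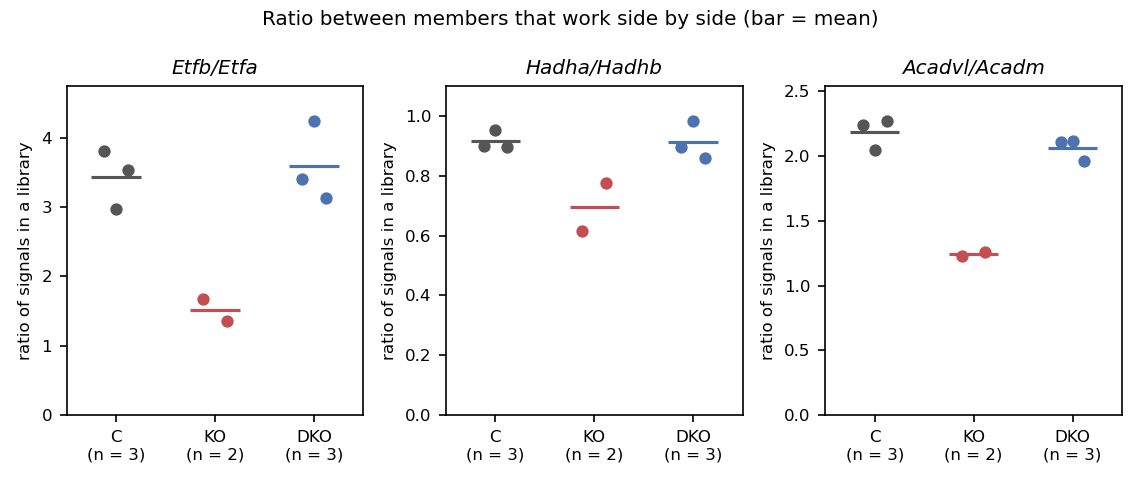
Ratio of signals within each library for 3 pairs of genes that work side by side (Etfb to Etfa, Hadha to Hadhb, Acadvl to Acadm), chosen after the values were seen, with points for libraries and bars for group means. In each panel both KO points are below all C and DKO points. Of ratios computed but not shown, Ucp3 to Ucp2 was also lowest in KO. Cpt1a to Cpt1b was higher in KO (0.0846 and 0.0687) than in C (0.0641 to 0.0680) and overlapped DKO. In each pair shown the first gene is the more GC-rich (57.1% against 45.0%, 51.3% against 39.1% and 53.7% against 48.0%).

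Exons of 15 of the 38 genes overlap another annotated gene, by over 10% of the exonic bases in 3. Acadvl shares 42.9% of its exonic bases with Dvl2 on the opposite strand, which read 7.33 to 10.7 across the libraries. Cpt1b shares 81.4% with the read-through gene Gm44502, which read at most 10.5 in any library, and Etfb shares 53% with the read-through gene Gm45233. The strand setting of the counting is not given in the sources used here, so a part of the reads in these genes can belong to either partner. Acaa1a likewise has a near-identical copy, Acaa1b, and its reads can be split.

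Plin5 coats lipid droplets beside mitochondria, and Ucp2 and Ucp3 are inner-membrane carriers named for uncoupling. Ucp3 read 77.2, 67.1 and 98.8 in C, 16.2 and 20.3 in KO, and 71.6, 61.4 and 49.5 in DKO. Its change of -2.08 (SE 0.207, adjusted p = 0.000256) in KO versus C was the largest of the 38, and DKO versus KO was higher by 1.67 (SE 0.207, adjusted p = 0.000867). Ucp2, next to Ucp3 on chromosome 7, read 112, 128 and 100 in C, 84.1 and 122 in KO, and 187, 137 and 82.1 in DKO, with overlapping groups (KO versus C -0.16, adjusted p = 0.765). Plin5 read 127, 153 and 145 in C, 58.3 and 88.3 in KO, and 113, 54.0 and 103 in DKO, a change of -0.97 (SE 0.285, adjusted p = 0.0422).

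**Figure D5:**
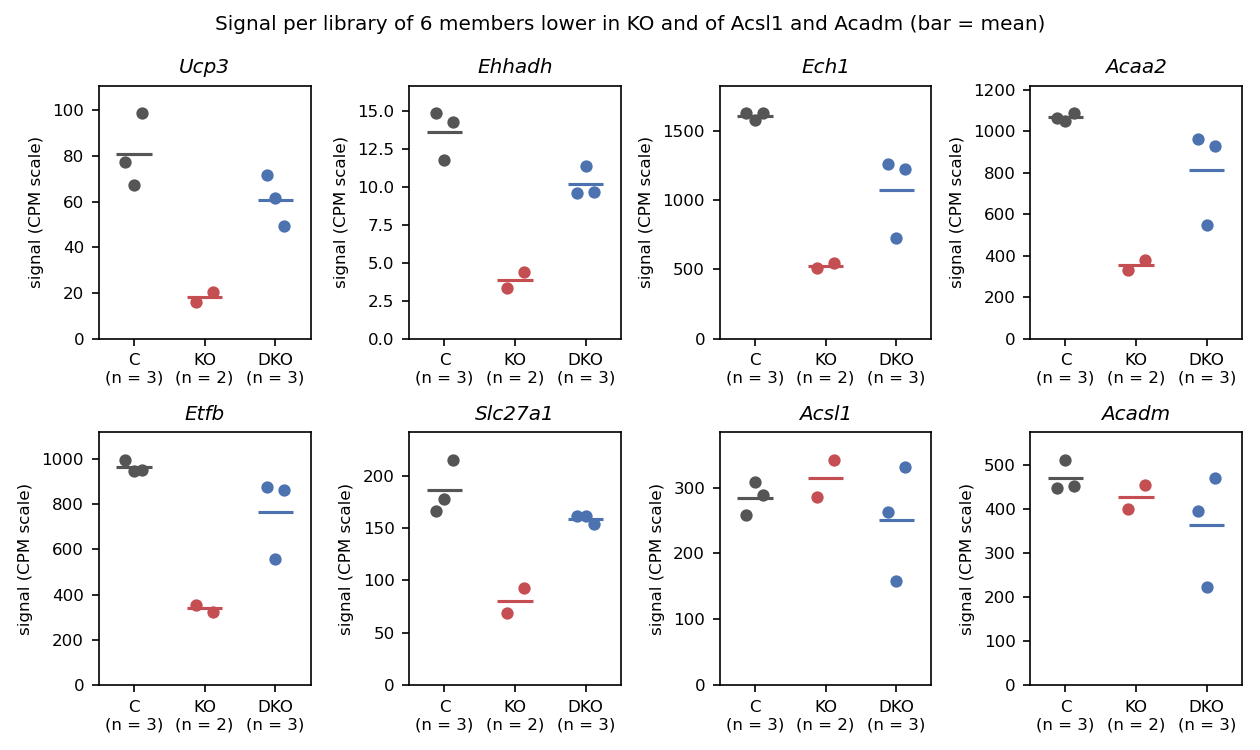
Normalised signal (CPM scale) of 6 genes that fell in KO (Ucp3, Ehhadh, Ech1, Acaa2, Etfb and Slc27a1) and of Acsl1 and Acadm, which did not pass the test, 1 panel a gene, with points for libraries and bars for group means. Both KO points of Ucp3, at 16.2 and 20.3, lie below the lowest other library, at 49.5.

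Skeletal muscle also expresses Ucp3 strongly, and its markers moved too. Of 15 such markers 11 fell and 1 rose (Casq1) in KO versus C, and 8 fell in DKO versus C. Over all tested genes 7.01% fell and 6.9% rose in KO versus C, and 0.0812% fell in DKO versus C. These shares hold for the marker counts below as well. The summed signal of all 15 was highest in KO, with 629 to 1118 in C, 2567 and 1689 in KO, and 92.1 to 905 in DKO. Without Acta1, which heart muscle also makes, their summed signal was 343, 148 and 600 in C, 174 and 126 in KO, and 31.8, 32.6 and 44.3 in DKO. Most of the KO sum was Mybpc2 and Casq1, and without these as well, a choice made after the values were seen, it was 298, 83.1 and 543 in C, 4.25 and 2.98 in KO, and 9.85 to 21.1 in DKO. Of these sums only the last was lowest in KO, as Ucp3 was. Within C the last sum and Ucp3 were both highest in C 3 and lowest in C 2. Within KO and within DKO the order differed: the sum was highest in KO 1 and DKO 2, and Ucp3 in KO 3 and DKO 1. All DKO libraries lay below all C libraries in this sum, whereas for Ucp3 DKO (49.5 to 71.6) overlapped C (67.1 to 98.8). A part of skeletal muscle in the Ucp3 values was not tested. Of 13 adipocyte markers 8 were in the table, 4 of which fell in KO versus C, and their sum was 869 to 1253 in C, 403 and 519 in KO and 593 to 1149 in DKO. Most of that sum was Fabp4, which endothelium also makes, and Plin1, Cidec and Pck1 were at 0 reads in KO. Endothelial markers summed to 1509 to 2025 in C and 1590 and 1687 in KO, within the range of C. Fibroblast markers summed to 1236 to 2031 in C, 1990 and 2495 in KO and 1434 to 3576 in DKO, and 6 of 12 rose in KO versus C. Pdgfra, Dpt and Gsn, the last being the largest part of the sum, changed by -0.34, -0.46 and -0.34 without passing. Macrophage markers summed to 342 to 377 in C, 477 and 485 in KO and 385 to 491 in DKO. In KO versus C 1 of 12 rose, near the 6.9% of all genes. Epicardial markers, those of the tissue that expresses Wt1, summed to 9.24 to 15.3 in C, 33.3 and 34.1 in KO and 10.7 to 17.9 in DKO, and 4 of the 7 in the table rose in KO versus C. Atrial markers summed to 239 to 574 in C, 2507 and 1637 in KO and 220 to 432 in DKO, and 1 of the 5 in the table rose, the natriuretic peptide gene Nppa. The KO libraries lay above all C libraries in the macrophage, epicardial and atrial sums. Nearly all of the atrial sum in KO was Nppa, at 2423 and 1624, against 220 to 430 in C. The atrial markers Myl7, Myl4 and Sln changed by -0.22, -0.34 and -0.83 in KO versus C and Dkk3 by 1.78, none passing the test. The part of these cells in the results was not tested.

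In DKO versus C, 0 of the 38 genes passed the limma threshold, where 0.0812% of all genes were lower and 0.0738% were higher. At an unadjusted limma p below 0.05, 8 were lower (Cpt2, Eci1, Decr1, Ech1, Mlycd, Ehhadh, Plin5 and Ucp3), 0 were higher, and the share of all genes lower was 3.31%. The edgeR, DESeq2 and voom tests also called 0. The DKO libraries were all below the C libraries for 13 of the 38 genes, against 7.25% of all genes. The largest differences were -0.71 for Plin5, -0.66 for Eci1 and -0.63 for Ech1, with 95% intervals of -1.27 to -0.15, -1.11 to -0.20 and -1.15 to -0.11. The median of the 38 genes was -0.40, and it was -0.14 without DKO 2. The DKO libraries were uneven, with medians relative to the C mean of -0.18, -0.85 and -0.10 for DKO 1, 2 and 3. DKO 2 was the lowest of all 8 libraries for 17 of the 38 genes, among them Acadm, Hadhb, Acadvl and Plin5, and 2 of these 17 (Acadvl and Plin5) were called lower in KO versus C. Missing the threshold does not show that the groups were alike.

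In DKO versus KO, 6 of the 38 genes were higher (Slc27a1, Acaa2, Ech1, Etfb, Ehhadh and Ucp3), against 6.08% of all genes, and 0 were lower, against 5.73%. These 6 are among the 13 that fell in KO versus C, and both comparisons use the same KO libraries. The DKO libraries were all above the KO libraries for 12 of the 38 genes, against 20.5% of all genes. With reads scaled to the plain total, where the median of all genes in DKO versus KO was -0.57, 2 of the 38 genes were higher (Ucp3 and Ehhadh), against 1.52% of all genes, and 4 were lower (Acsl1, Acsl4, Acsl5 and Acadm), against 44.3% of all genes. Leaving out DKO 2 gave 12 genes higher in DKO versus KO (8.02% of all genes) and 21 lower in KO versus C (11.2% of all genes), the latter because that library enters the shared estimate of spread. Leaving out KO 1 or KO 3 leaves 1 KO library. The median of the 38 genes in DKO versus KO was then 0.07 or 0.45, against 0.24 with all libraries.

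Of the 6 increases in DKO versus KO, those of Ucp3 and Ehhadh passed under all 22 alternatives. Ech1 was lost under 11 of them, among these the correction for transcript length and GC content (adjusted p = 0.064) and leaving out C 1, C 2, C 3, DKO 1, DKO 3, KO 1 or KO 3 (adjusted p of 0.0611 to 0.173). Acaa2 and Etfb were lost without KO 1 or without KO 3 (adjusted p of 0.0901 and 0.113, and of 0.0575 and 0.106), and Slc27a1 without KO 1 (adjusted p = 0.0784).

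Of the 13 decreases in KO versus C, those of Ucp3, Ehhadh, Ech1, Acaa2 and Etfb passed under all 22 alternatives tried. Without any 1 of the C libraries 8 genes were lower. Over all genes limma then called 899 to 1048, of which 46.8% to 51.7% were lower, against 1883 and 50.4% with all libraries. Leaving out KO 1 or KO 3 leaves 1 KO library, and the median of the 38 genes was then -0.41 or -0.63. Decr1, Cpt1b, Acadvl, Plin5 and Acaa1a did not pass without C 1, C 2, C 3, KO 1 or KO 3, with adjusted p of 0.0519 to 0.129, 0.0798 to 0.207, 0.107 to 0.216, 0.08 to 0.303 and 0.0822 to 0.152. Eci1 did not pass without KO 1 or without KO 3, with adjusted p of 0.0529 and 0.0932. Quantile normalisation, under which the median of the 38 genes was -0.24 and 28 were below zero instead of 35, ended the calls of Cpt1b (log2 -0.45, adjusted p = 0.107), Acadvl (log2 -0.46, adjusted p = 0.144) and Plin5 (log2 -0.89, adjusted p = 0.0568). Across the 38 genes the change in KO versus C followed transcript length (Spearman's rho 0.55) and GC content (rho -0.53), shorter and more GC-rich genes being lower, while over all genes these were 0.25 and -0.05. These are descriptions across genes of the same libraries.

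Other genes of fatty acid metabolism were taken from 7 lists of 93 genes, of which 88 were in the table. In KO versus C 16 of the 88 were lower (18.2%) and 1 was higher, against 7.01% lower and 6.9% higher among all tested genes. By list, 3 of 9 for transport and binding were lower, led by Angptl4, an inhibitor of lipoprotein lipase (-1.87), Fabp4 (-1.17) and Gpihbp1, which anchors Lpl to capillaries (-0.92). For mitochondrial oxidation 4 of 13 were lower, led by the thioesterase Acot1 (-2.32), whose near-identical copies can share its reads. For triglyceride storage and lipolysis 3 of 15 were lower, namely Lipe (-1.06), Mgll (-0.96) and Pnpla2 (-0.95). For further peroxisomal oxidation 1 of 14 was lower, Abcd3 (-0.62), and this 7.14% is near the share over all genes. No gene of synthesis and desaturation (0 of 11) passed in either direction.

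Among 21 regulators 4 were lower in KO versus C (19%, against 7.01% of all genes). They were led by Pdk4, a kinase that shuts off pyruvate use (-1.71), Rxrg (-0.95) and Pparg (-0.88). A further 1 was higher, where 6.9% of all genes were higher. That one was Ppara, which encodes PPARalpha, at 0.765, 1.24 and 2.44 in C and 2.70 and 7.99 in KO (log2 1.27, SE 0.358, adjusted p = 0.0349), and its level was low in all libraries. Ppargc1a, a coactivator of PPARalpha and ERRalpha, read 27.2, 32.2 and 27.8 in C and 22.6 and 33.2 in KO, which overlap (adjusted p = 0.889). Esrra, which encodes ERRalpha, read 166, 188 and 180 in C and 129 and 145 in KO, below all C libraries without passing (adjusted p = 0.143). In DKO versus C, 1 of the 88 genes was lower (1.14%), against 0.0812% of all genes. This was Pdk4, at 500, 536 and 607 in C and 220, 116 and 134 in DKO (log2 -1.85, adjusted p = 0.0126). Pdk4 in DKO versus KO differed by -0.14 (adjusted p = 0.775), with overlapping groups.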

How the data were processed

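Poly(A) RNA was sequenced on an Illumina NovaSeq from randomly primed cDNA (labels' protocols). Tools listed in the submitters' processing notes are cutadapt, limma and RSEM 1.3.1, with build GRCm38 and no role for each; which annotation and strand setting were used is not given in the sources used here. Each deposited signal value equals reads plus 0.5 on the CPM scale of an effective library size, the total times a scaling factor. Whole reads were recovered for 100% of values (tolerance 0.001), and TMM factors recomputed from them matched the deposited ones.

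Values were tested as log2(value + 1), which understates changes of low genes, with limma 3.58.1 (R 4.3.3; trend in the variance; 13544 genes kept, those reaching 1 in 2 or more libraries; 3 group means in 1 fit; Benjamini-Hochberg over all tested genes, threshold 0.05). On the recovered reads, edgeR 4.0.16, DESeq2 1.42.0 and voom were alternatives. Intervals are 95%. The scripts were tested on simulated data. Locations are from GENCODE on GRCm38, promoters from RefSeq (GRCm38.p6), with no entry for Crat, Acaa2, Cpt1b, Acat1, Decr1 and Lpl.

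Genes named in full are the 12 largest changes past the threshold plus Cd36, Lpl, Acsl1, Cpt1a, Cpt1b, Cpt2, Acadl, Acadm, Acadvl, Hadha, Hadhb, Etfdh and Ucp3; of other lists, up to 3 past the threshold plus Ppara, Ppargc1a and Esrra. Other members are given more briefly, and the library values of Etfa and Ucp2 and the ratios between genes were added after their values were seen. The members and lists were chosen with earlier results of these data known. The result of 1 list of other genes is not reported here.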

Additional observations from a re-analysis of the deposited data

How the results depend on the processing

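The number of genes called of the 38 was 13 in KO versus C, 0 in DKO versus C and 6 in DKO versus KO, and no call reversed its direction under 22 alternatives, 3 of them (the edgeR test on nuclear reads and both scalings without a factor) chosen after seeing the data. With only the 2 groups compared in the fit the number was 22 in KO versus C and 3 in DKO versus KO. Leaving out 1 library in turn gave 7 to 21 in KO versus C and 2 to 12 in DKO versus KO. Scaled to all reads without a factor, KO versus C gave 7, of which 5 were lower. DKO versus C gave 0 under every alternative. A replicate block gave 14, 0 and 7. Deviations of same-numbered libraries correlated at -0.27 to 0.22. Differently numbered libraries were not set beside them, so this cannot decide whether the numbers pair the samples. The labels do not say that they do, and the main fit has no replicate block.

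Over all genes limma called 1883, 21 and 1599. With only the 2 groups compared this was 3606 in KO versus C and 730 in DKO versus KO; leaving out 1 library gave 449 to 2966, 4 to 90 and 334 to 1991; DESeq2 gave 69 and voom 7 in DKO versus C. The pseudocount of 4 and leaving out C 3 or DKO 2 lowered DKO versus C to 14, 12 and 14. Scaling without a factor gave 4806, 31 and 6205 (all reads) and 4066, 31 and 3759 (nuclear reads). The KO group has 2 libraries, which limits precision in both comparisons that use it; no gene described here had fewer than 34 reads in a library.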
